A study of Homo sapiens with 18 samples.

Results

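The genes described here are 47 human genes of the lysosome, the acidic compartment in which cells digest proteins, sugars and lipids, and of the TFEB family of transcription factors that regulates it. They were named from a list of textbook lysosome genes, chosen with earlier results of these data known. They were matched by gene symbol to the Ensembl identifiers of the deposited expression table, and all 47 were among its 40184 genes. A gene was tested in a cell line when it reached 1 CPM (1 count per 1000000 reads of the scaled library) in 3 or more libraries of that line. In this way 43 of the 47 could be tested in at least 1 line and 41 in all 3 lines, with 42 for Molm-14, 43 for MV4-11 and 42 for SKNO-1. By role, the 47 comprised 9 cathepsins and other proteases, 10 glycosidases, 8 lipases, sulfatases and phosphatases, 4 activator and carrier proteins of the lumen, 7 membrane proteins, 6 proteins of the proton pump and 3 regulators.

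The study treated human acute myeloid leukaemia lines in culture with RMC-4550, an allosteric inhibitor of SHP2, a phosphatase through which receptor tyrosine kinases activate RAS, or with the vehicle DMSO. Each of the 6 groups was 1 line under 1 treatment for 24 h (RMC-4550 at 500 nM or DMSO), with 3 libraries labelled as biological replicates. The genotype given for Molm-14 and MV4-11 was FLT3-ITD, an activating internal duplication in the receptor FLT3, and that given for SKNO-1 was KIT N822K. SKNO-1 alone was grown with human GM-CSF, at 10 ng/mL, so the line, its genotype and the cytokine cannot be told apart. RNA was enriched with oligo(dT) beads, and each line is a single established line.

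Lysosomal hydrolases are made as precursors, tagged with mannose 6-phosphate and carried to the lysosome, where a proton pump keeps the lumen acidic. TFEB, TFE3 and MITF are basic helix-loop-helix factors that bind an E-box called the CLEAR element near the start sites of many lysosome genes. When nutrients are plentiful, the kinase mTORC1 on the lysosomal surface phosphorylates TFEB and TFE3 and holds them in the cytoplasm, so their activity depends on location as well as on RNA level, and these data measure RNA alone. Monocytes and macrophages are rich in lysosomes, and lysosome genes rise as myeloid cells mature.

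The CLEAR core was searched for in the RefSeq promoters (GRCh38.p14, 250 bases before to 50 after each start), which held 33 of the 47 genes. The letters CACGTG, the same on both strands, were found for 10 of the 33 genes (30.3%), against 8.78% of all 27305 genes with a promoter. The longer TCACGTG, read on either strand, was found for 8 (24.2%), against 4.49% of all genes. The full palindrome TCACGTGA was found for 6 (18.2%), against 1.18%, and each longer motif contains the shorter one. The 8 promoters with TCACGTG on either strand are shown around 1 match each, because the list was named for factors that bind such an element. Each is printed 5′ to 3′ on the gene's own strand with the match in capitals.
ATP6V0D1: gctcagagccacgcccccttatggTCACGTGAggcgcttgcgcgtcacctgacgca
CLN3: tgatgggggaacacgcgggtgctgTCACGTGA
CTSA: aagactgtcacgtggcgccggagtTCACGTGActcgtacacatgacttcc
GAA: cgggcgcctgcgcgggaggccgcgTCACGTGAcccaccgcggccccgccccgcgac
LAMP1: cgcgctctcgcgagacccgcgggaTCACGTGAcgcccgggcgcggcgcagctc
MCOLN1: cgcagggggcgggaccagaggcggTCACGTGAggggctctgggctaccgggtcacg
CTSD: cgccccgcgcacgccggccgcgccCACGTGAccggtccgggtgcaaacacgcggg
NEU1: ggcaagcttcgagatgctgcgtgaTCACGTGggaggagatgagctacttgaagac

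These windows lie at chr16:67481186-67481241 on the minus strand for ATP6V0D1, chr16:28492069-28492100 on the minus strand for CLN3, chr20:45891285-45891334 on the plus strand for CTSA and chr17:80101480-80101535 on the plus strand for GAA. The others lie at chr13:113297186-113297238 on the plus strand for LAMP1, chr19:7522558-7522613 on the plus strand for MCOLN1, chr11:1763944-1763998 on the minus strand for CTSD and chr6:31862918-31862972 on the minus strand for NEU1. The printed match began 60 bases before the RefSeq start site for ATP6V0D1, 2 before it for CLN3, 26 for CTSA, 77 for GAA, 29 for LAMP1, 42 for MCOLN1, 47 for CTSD and 127 for NEU1. LAMP1 had 6 CACGTG matches in its promoter, more than the 1 or 2 of the others. The promoters of TFEB and CTSZ, whose RNA rose in all 3 lines, had no match in this window. A match is a description of the letters and does not show binding.

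The 18 libraries held 17434810 to 19959917 reads each. In 4 of them mitochondrially encoded transcripts took 10.5% to 15.0% of reads, against 5.06% to 7.004% in the other 14; these 4 also had the fewest reads, at most 18852613. They were Molm-14 RMC-4550 replicate 2, MV4-11 DMSO replicates 1 and 3, and MV4-11 RMC-4550 replicate 1. In those 4 libraries the proton pump genes were lower than in the other libraries of their own group, for 5 of 5 genes in each group, with median ratios of 0.552 in Molm-14 RMC-4550, 0.529 in MV4-11 DMSO and 0.742 in MV4-11 RMC-4550. TFE3 (ratios 1.20, 1.02 and 1.02 in the same order) and CTSZ (0.982, 0.926 and 1.04) differed little in them, whereas PSAP was at 0.403, 0.428 and 0.537 of the other libraries. Results are therefore given with all 18 libraries and, where they change, without the 4, which leaves MV4-11 with 1 DMSO library that is assumed to vary like the other groups. In SKNO-1 leaving out the 4 changes no fold, since none is a SKNO-1 library, and acts only through the pooled spread.

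In Molm-14, 18 of the 42 tested members rose with RMC-4550 and 4 fell, with cathepsins, glycosidases and membrane proteins among the risers, while the other 20 did not pass the test. Over all genes tested in Molm-14, 21.5% were called higher and 25.2% lower. The median log2 change of the members was 0.18, against -0.06 over all genes, and 26 of 42 changes were above 0. Leaving out the 4 libraries gave 24 higher and 7 lower, against 27.7% and 31.3% of all genes. The summed level of the 47 genes was 4475, 4569 and 4621 CPM in the DMSO libraries and 5984, 4264 and 5848 CPM in the RMC-4550 libraries. The second RMC-4550 library lay below every DMSO library and is one of the 4 set apart, so the groups overlapped. The count called lower was 8 without Molm-14 RMC-4550 replicate 1. In such bulk RNA a change in the share of a cell state and a change in RNA per cell cannot be told apart.

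In MV4-11, 9 of 43 tested members rose and 0 fell at an adjusted p under 0.05 in limma, against 5.85% of all genes called higher and 8.03% called lower. At an unadjusted p under 0.05 limma gave 14 higher and 1 lower, and voom weights gave 0 lower; adding each library's mitochondrial share to the model gave 2 lower, and dropping the 4 libraries gave 3. The members' median log2 change was 0.23 against -0.01 over all genes, and 34 of 43 changes were above 0. With the 4 libraries left out the median was 0.04 against -0.06, with 12 members called higher and 24 of 43 above 0, when 8.82% of all genes were called higher and 18.1% lower. The summed level was 3672, 4663 and 3633 CPM with DMSO and 4460, 5146 and 5404 CPM with RMC-4550. The DMSO library with the highest sum was the single one with a low mitochondrial share, and it exceeded the lowest RMC-4550 library. Without that library, DMSO replicate 2, 17 members were called higher. Without DMSO replicate 1, DMSO replicate 3 or RMC-4550 replicate 3 the count was 5, 4 and 4. All-gene shares for these omissions are not given. The count called lower was 1 without DMSO replicate 1 or RMC-4550 replicate 2.

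In SKNO-1, 9 of 42 tested members rose and 3 fell, against 10.8% of all genes called higher and 16.2% called lower. The median log2 change of the members was 0.08, against -0.05 over all genes, and 28 of 42 changes were above 0. Their summed level was 5250, 5421 and 5527 CPM with DMSO and 5714, 6191 and 5952 CPM with RMC-4550, without overlap. Median-ratio scaling in place of the deposited scaling called 13.4% of all genes higher and 13.2% lower, and 11 members higher and 2 lower. The count higher was 5 without SKNO-1 DMSO replicate 1 or 3, and the count lower was 1 without DMSO replicate 2 or 3 or RMC-4550 replicate 1 or 2 and 5 without Molm-14 RMC-4550 replicate 2. Once the 4 libraries of the other lines were dropped, 17 members were called higher and 8 lower, against 21.2% and 32.1% of all genes. TFEB, CTSZ and MANBA were called higher in all 3 lines, and no member was called lower in all 3; over all genes tested in all 3 lines, 3.11% were called higher in each and 5.80% lower in each. CTSZ kept its 3 calls in every alternative. With each line fitted alone TFEB did not pass in Molm-14 (adjusted p = 0.0957) or MV4-11 (0.106), nor MANBA in MV4-11 (0.116). With no filter on low values TFEB did not pass in Molm-14 (0.0876), nor MANBA in SKNO-1 (0.0781). The members called higher in all 3 lines without the 4 libraries were ARSA, CTSA, CTSS, CTSZ, GM2A, GRN, MANBA, PSAP, TFEB and TPP1, and PPT1 was called lower in all 3, when 6.53% of all genes were called higher in each line and 15.3% lower.

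**Figure D1:**
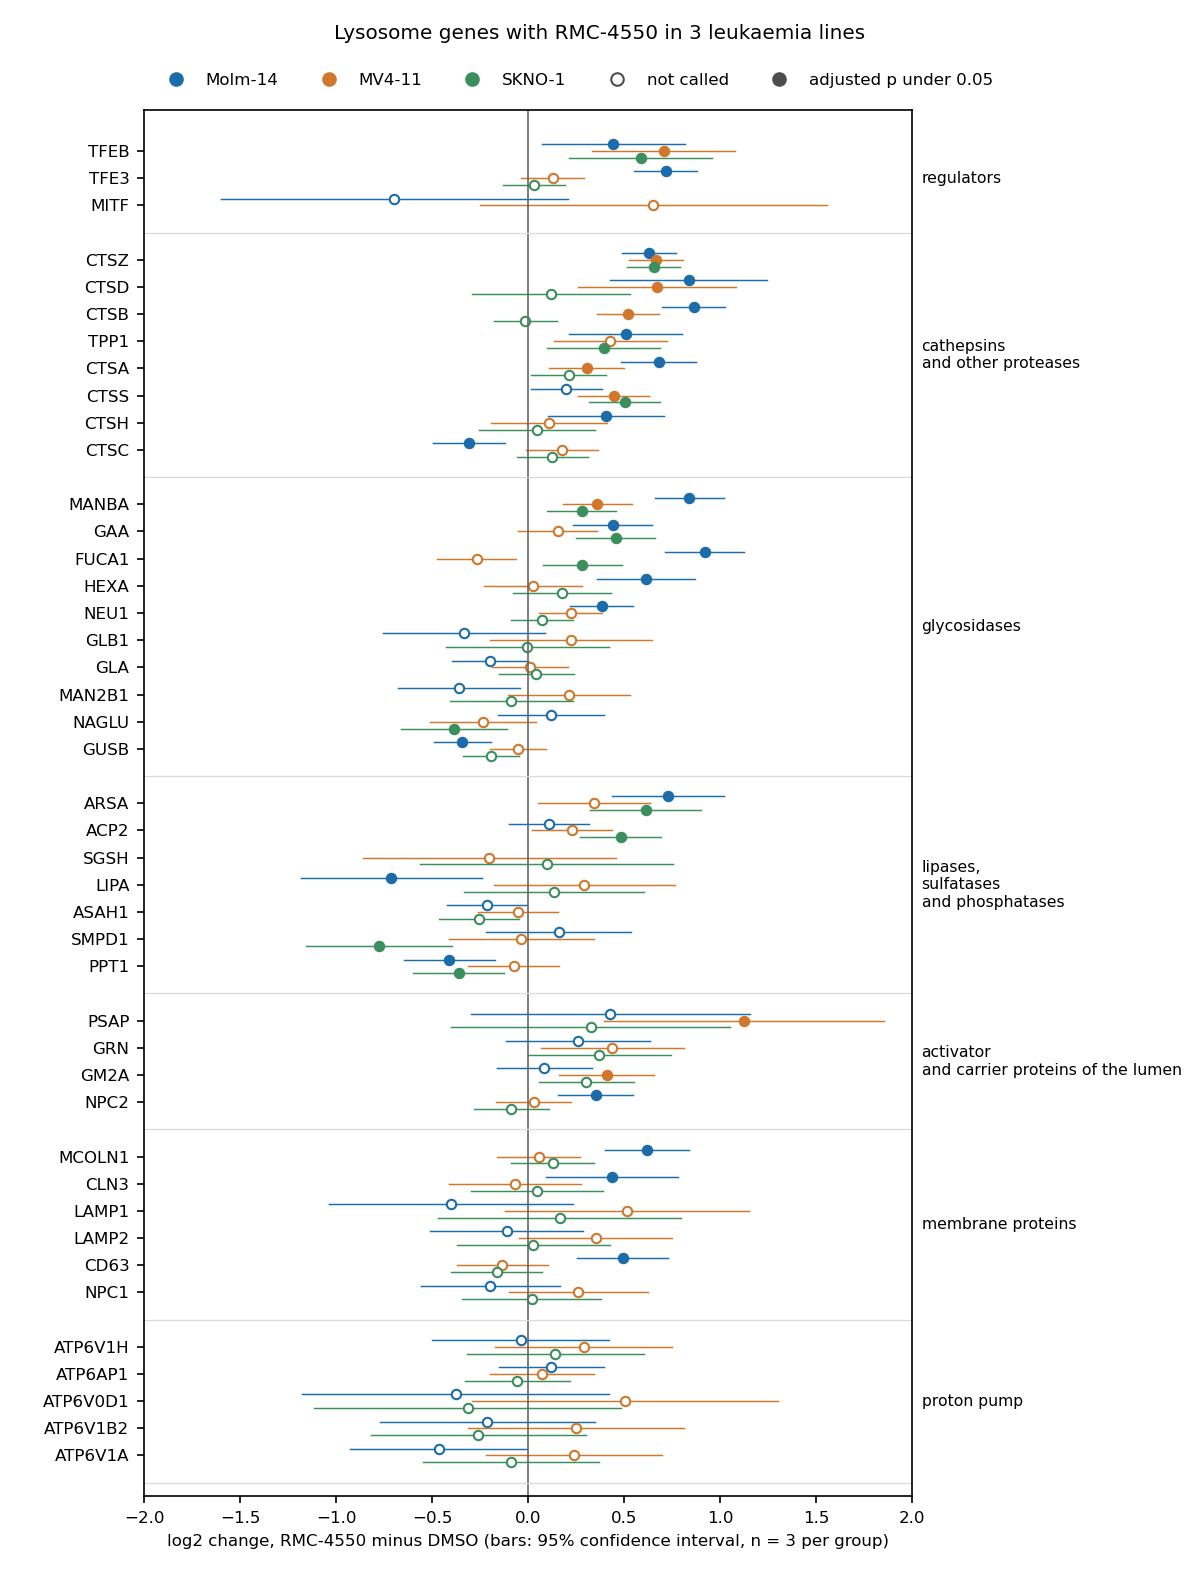
The horizontal axis is the log2 change with RMC-4550 against DMSO with its 95% confidence interval for each of the 43 tested members, grouped by role on the vertical axis. The cell lines share a single panel and are told apart by colour. Filled points passed the test at an adjusted p under 0.05 and open points did not. In Molm-14, 18 filled points lie above 0 and 4 below, in MV4-11 9 above and 0 below, and in SKNO-1 9 above and 3 below.

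Markers of myeloid maturation also moved with treatment. Of 12 monocyte and macrophage genes, 7 could be tested in each line, with 3 higher and 1 lower in Molm-14, 3 higher and 0 lower in MV4-11, and 3 higher and 1 lower in SKNO-1. Their summed level ran from 267.6 to 282 CPM with DMSO and from 376 to 443 CPM with RMC-4550 in Molm-14, from 499 to 517 and from 679.98 to 715 CPM in MV4-11, and from 541 to 561 and from 875 to 915 CPM in SKNO-1. CSF1R, the receptor for macrophage colony-stimulating factor, rose from a mean of 12.6 to 70.2 CPM in Molm-14, from 56.3 to 129 in MV4-11 and from 132 to 277 in SKNO-1. The scavenger receptor CD36 rose from 33.0 to 86.1, from 26.9 to 55.8 and from 21.5 to 99.3 CPM in the same order. FCGR1A, an Fc receptor of monocytes, fell from 20.1 to 10.9 CPM in Molm-14 and from 22.6 to 16.9 in SKNO-1, with 28.6 and 21.6 CPM in MV4-11 (not called). The lysozyme gene LYZ was called in no line. It stood at 125, 42.0 and 124 CPM with RMC-4550 in Molm-14. In MV4-11 it stood at 80.5, 144 and 65.3 CPM with DMSO and 108, 145 and 141 CPM with RMC-4550. Its lowest values in these lines were those of the 4 libraries set apart. CD14 and MRC1, which mark mature monocytes and macrophages, stayed below 1 CPM in every library, and the part of this shift in the lysosome changes was not tested. Of the progenitor markers, ELANE, a granule elastase, rose in Molm-14 from 448 to 651 CPM and MPO, the myeloperoxidase, fell there from 3.58 to 1.53 CPM, out of 4 tested. The RMC-4550 libraries there held 556, 817 and 579 CPM for ELANE and 2.13, 0.641 and 1.81 CPM for MPO. The most extreme value of each came from replicate 2, which is among the 4 libraries set apart. In limma 0 of 5 passed in MV4-11 and 0 of 5 in SKNO-1, also at an unadjusted p under 0.05. The 3 T-cell markers were below 1 CPM in every library, the erythroid markers summed to at most 1.22 CPM, the B-cell markers to between 1.36 and 17.8 CPM and the stromal markers to between 2.13 and 14.6 CPM.

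TFEB (ENSG00000112561, GRCh38 chr6:41683978-41736259, minus strand), the best known activator of lysosome genes, rose in all 3 lines, with log2 changes between 0.44 and 0.71. The Molm-14 level stood at 43.3, 45.6 and 46.1 CPM with DMSO and at 70.3, 45.4 and 71.9 CPM with RMC-4550. The groups overlapped through RMC-4550 replicate 2, and the log2 change was 0.44 (SE 0.18, limma adjusted p = 0.0478), or 0.66 without the 4 libraries. In MV4-11 the values were 28.8, 42.6 and 29.9 CPM with DMSO and 44.7, 56.6 and 62.7 CPM with RMC-4550; the log2 change was 0.71 (SE 0.18, adjusted p = 0.0128), or 0.49 without the 4 libraries. Every RMC-4550 library was above every DMSO library there, the nearest pair being 42.6 and 44.7 CPM. The SKNO-1 libraries gave 36.4, 40.5 and 37.2 CPM with DMSO and 54.1, 63.1 and 54.5 CPM with RMC-4550, without overlap, and a log2 change of 0.59 (SE 0.18, adjusted p = 0.0203). The Molm-14 call was lost when any of 12 single libraries was left out: the 3 Molm-14 DMSO, Molm-14 RMC-4550 replicates 1 and 3, MV4-11 RMC-4550 replicate 2 and the 6 SKNO-1 libraries (log2 0.33 to 0.46). Omitting DMSO replicate 1, DMSO replicate 3 or RMC-4550 replicate 3 ended the MV4-11 call (0.60 to 0.63), and omitting DMSO replicate 1, DMSO replicate 3 or RMC-4550 replicate 2 of SKNO-1 ended the call in that line (0.51 to 0.57).

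TFE3 (ENSG00000068323, chrX:49028726-49043486, minus strand), its closest relative in this regulation, rose in Molm-14. There it went from 74.2, 67.8 and 73.8 CPM with DMSO to 109, 134 and 113 CPM with RMC-4550 (log2 0.72, SE 0.08, adjusted p = 2.39e-06), with no overlap. In MV4-11 it stood at 81.1, 79.8 and 81.7 against 89.7, 83.9 and 91.7 CPM. These groups did not overlap either, but the log2 change (0.13, 95% interval -0.04 to 0.29) did not pass the test (adjusted p = 0.325). In SKNO-1 the 3 DMSO libraries, at 91.2, 94.0 and 92.1 CPM, overlapped the RMC-4550 libraries at 94.2, 95.6 and 93.4 CPM (log2 0.03, adjusted p = 0.812).

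MITF (ENSG00000187098, chr3:69739435-69968337, plus strand), a family member best known in pigment cells and osteoclasts, did not pass the test in any line. In Molm-14 it was at 22.9, 23.01 and 23.5 CPM with DMSO and 20.2, 8.01 and 17.985 CPM with RMC-4550 (log2 -0.70, SE 0.43, adjusted p = 0.190). All RMC-4550 libraries were below all DMSO libraries, the lowest being replicate 2, and without the 4 libraries the change was -0.28. MV4-11 had 2.15, 6.80 and 1.92 CPM with DMSO and 3.12, 5.72 and 6.19 CPM with RMC-4550; its log2 change was 0.65 (adjusted p = 0.369) with all libraries and -0.19 without the 4. SKNO-1 stayed under 1 CPM in every library, at 0.646, 0.459 and 0.612 with DMSO and 0.278, 0.278 and 0.184 with RMC-4550, and was not tested.

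**Figure D2:**
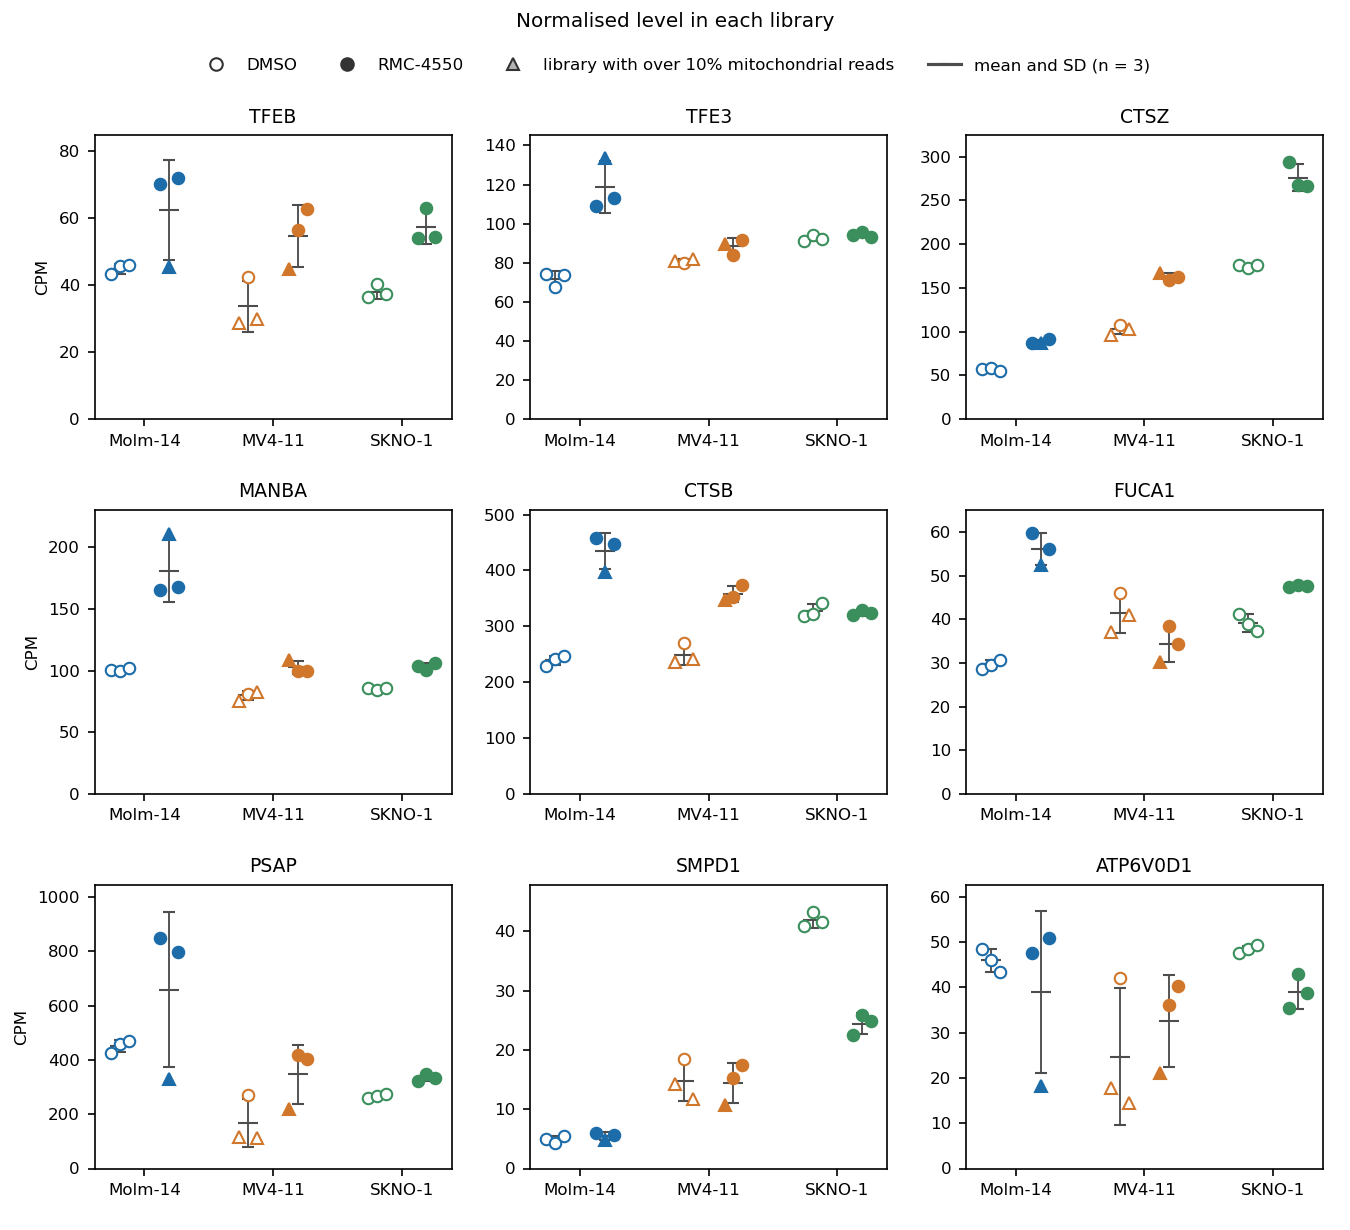
Each panel plots the level in CPM (vertical axis, starting at 0) of 1 gene in each of the 18 libraries, by cell line and treatment, with the mean and SD of each group of 3; triangles mark the 4 libraries with over 10% mitochondrial reads. CTSZ is higher in every RMC-4550 library than in any DMSO library of the same line, while PSAP and ATP6V0D1 follow the triangles in Molm-14 and MV4-11.

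Among the proteases, which degrade proteins in the lumen, 6 of 8 tested members rose and 1 fell in Molm-14, 5 rose and 0 fell in MV4-11, and 3 rose and 0 fell in SKNO-1, with 0 lower in either of the latter lines at an unadjusted p under 0.05 too. Their median log2 changes were 0.57, 0.44 and 0.17 in that order. CTSZ (ENSG00000101160, chr20:58995185-59007247, minus strand), a carboxypeptidase of the cathepsin family, changed by nearly the same amount in each line. It went from 57.4, 58.1 and 55.5 to 86.5, 87.2 and 91.1 CPM in Molm-14 (log2 0.63, SE 0.07, adjusted p = 1.87e-06). In MV4-11 it went from 96.5, 108 and 103 to 167, 159 and 163 CPM (log2 0.67, adjusted p = 5.37e-06). SKNO-1 libraries went from 177, 173 and 176 to 294, 267 and 266 CPM (log2 0.65, adjusted p = 2.37e-06). The groups were far apart in all 3 lines, and each call held when any single library was left out.

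CTSB (ENSG00000164733, chromosome 8), an abundant cysteine cathepsin, rose in both FLT3-ITD lines and not in SKNO-1. In Molm-14 it was at 229.7, 241 and 246 CPM with DMSO and 459, 398 and 448 CPM with RMC-4550 (log2 0.86, SE 0.08, adjusted p = 3.43e-07). MV4-11 libraries held 236, 271 and 241 against 346, 353 and 373 CPM (log2 0.52, adjusted p = 0.000232). Neither line's groups overlapped. In SKNO-1 they did, at 318, 323 and 341 against 319.7, 329.8 and 324 CPM, with a log2 change of -0.01 (95% interval -0.18 to 0.15, adjusted p = 0.925).

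CTSD (ENSG00000117984, chr11:1752752-1764573, minus strand), the major aspartic protease of the lysosome, rose in Molm-14 and MV4-11. It was at 65.5, 63.1 and 68.5 CPM with DMSO and 147, 78.5 and 139 CPM with RMC-4550 in Molm-14 (log2 0.84, SE 0.19, adjusted p = 0.00232), and the change was 1.12 without the 4 libraries. In MV4-11 it was at 97.7, 115 and 92.9 against 138, 158 and 194 CPM (log2 0.67, adjusted p = 0.0293). Both lines showed no overlap, whereas SKNO-1 did, at 170.1, 203 and 204 against 179, 240.4 and 209 CPM (log2 0.12, adjusted p = 0.703). Omitting DMSO replicate 1, DMSO replicate 3, RMC-4550 replicate 2 or RMC-4550 replicate 3 ended the MV4-11 call (log2 0.54 to 0.69). By GENCODE release 29, 52.7% of the exon bases of CTSD overlap another annotated gene, and 41.7% of all its exon bases overlap one on the same strand, so shared reads cannot be told apart. The next largest overlaps among tested members were 30.9% for CLN3, 28.5% for CTSA, 23.4% for PPT1 and 21.2% for MAN2B1. Those of CTSA and PPT1 lie on the other strand, and the strand setting is not known.

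The other proteases passed the test in fewer lines than CTSZ. CTSA, a carboxypeptidase that also protects the galactosidase GLB1 and the sialidase NEU1, rose in Molm-14 (log2 0.68) and MV4-11 (0.31) and had 0.21 in SKNO-1 (adjusted p = 0.1004; called higher without the 4 libraries). CTSS, an elastolytic cathepsin of antigen-presenting cells, rose in MV4-11 (0.45) and SKNO-1 (0.50) and had 0.20 in Molm-14 (adjusted p = 0.0723; 0.26 and called higher without the 4). The tripeptidyl peptidase TPP1 rose in Molm-14 (0.51) and SKNO-1 (0.40), with 0.43 in MV4-11 at an adjusted p of 0.0513 (0.33 and called higher without the 4). CTSH, an aminopeptidase, rose in Molm-14 by 0.40. CTSC, which activates granule serine proteases, fell in Molm-14 by 0.31 and had 0.18 in MV4-11 and 0.13 in SKNO-1, the latter called higher without the 4. CTSA in MV4-11 lost its call without DMSO replicate 2 or 3 or RMC-4550 replicate 1 or 3 (0.24 to 0.30), CTSH in Molm-14 without DMSO replicate 1 or 2 or RMC-4550 replicate 1 or 2 (0.31 to 0.42), and TPP1 in SKNO-1 without any of 10 single libraries (0.33 to 0.40). Those 10 were the 3 Molm-14 DMSO, MV4-11 DMSO replicate 3, MV4-11 RMC-4550 replicate 2, the 3 SKNO-1 DMSO and SKNO-1 RMC-4550 replicates 2 and 3.

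The glycosidases trim sugars from glycoproteins and glycolipids. Of 10 tested, 5 rose and 1 fell in Molm-14, 1 rose and 0 fell in MV4-11, and 3 rose and 1 fell in SKNO-1, with median log2 changes of 0.25, 0.09 and 0.06. MANBA (ENSG00000109323, chr4:102630770-102760994, minus strand), the beta-mannosidase, rose in each line. Its values in Molm-14 were 101, 99.3 and 102 CPM with DMSO and 165, 211 and 168 CPM with RMC-4550 (log2 0.84, SE 0.09, adjusted p = 1.29e-06). In MV4-11 they were 75.4, 81.4 and 82.8 against 108, 99.6 and 99.9 CPM (log2 0.36, adjusted p = 0.0089). SKNO-1 had 85.5, 84.5 and 85.6 against 104, 100.3 and 107 CPM (log2 0.28, adjusted p = 0.0221). No line showed overlap, and the SKNO-1 call was lost without any of its DMSO libraries or RMC-4550 replicate 1 or 3 (0.26 to 0.28).

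FUCA1 (ENSG00000179163, chr1:23845077-23868294, minus strand), the fucosidase, had the largest rise among the tested members in Molm-14 with all 18 libraries; without the 4, and with the covariate, CTSD rose more (1.12 against 0.97, and 1.05 against 1.001). It went there from 28.6, 29.6 and 30.8 to 59.9, 52.6 and 56.2 CPM (log2 0.92, SE 0.10, adjusted p = 1.91e-06), without overlap. MV4-11 had 37.2, 46.0 and 41.0 CPM with DMSO and 30.3, 38.5 and 34.5 CPM with RMC-4550, overlapping, with a log2 change of -0.27 (adjusted p = 0.0819) that was called lower without the 4 libraries (-0.34, adjusted p = 0.0110). SKNO-1 went from 41.3, 39.0 and 37.3 to 47.4, 47.8 and 47.8 CPM (log2 0.28, adjusted p = 0.0404). The SKNO-1 call was lost without any of 10 single libraries (0.25 to 0.32): the 6 SKNO-1 libraries, the 3 Molm-14 DMSO libraries and MV4-11 RMC-4550 replicate 3.

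GAA (ENSG00000171298, chr17:80101556-80119879, plus strand), the enzyme that breaks down glycogen in lysosomes, rose in Molm-14 and SKNO-1. The Molm-14 libraries were at 109.6, 119 and 119 CPM with DMSO and 155, 173 and 145 CPM with RMC-4550 (log2 0.44, SE 0.10, adjusted p = 0.00155). SKNO-1 libraries were at 165, 173 and 181 against 208, 268 and 239.5 CPM (log2 0.46, adjusted p = 0.00222), and the groups were separate in both lines. In MV4-11 GAA was at 169, 152 and 171 against 172, 179 and 196 CPM, just separate, but the log2 change (0.15) was not called (adjusted p = 0.348). Elsewhere in the list, HEXA (beta-hexosaminidase, 0.61) and NEU1 (sialidase, 0.38) rose in Molm-14. GUSB, the glucuronidase, fell in Molm-14 by 0.34, and NAGLU, which degrades heparan sulfate, fell in SKNO-1 by 0.38. The NAGLU call was lost without SKNO-1 DMSO replicate 2 or 3 or RMC-4550 replicate 1 or 2 (-0.37 to -0.29). GLA, GLB1 and MAN2B1 passed the test in no line with all libraries, with log2 changes from -0.36 to 0.22. Without the 4, GLA (-0.16) and MAN2B1 (-0.19) were called lower in Molm-14, where 3 glycosidases in place of 1 then fell, and GUSB in SKNO-1 (-0.19).

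In the group of lipases, sulfatases and phosphatases, 1 of 6 tested genes rose and 2 fell in Molm-14, 0 of 7 in MV4-11 (2 higher and 0 lower at an unadjusted p under 0.05), and 2 of 7 rose and 2 fell in SKNO-1. In MV4-11 1 was called higher and 2 lower without the 4 libraries. ARSA (ENSG00000100299, chr22:50622754-50628173, minus strand), the arylsulfatase that degrades sulfatides, rose in Molm-14 from 23.4, 21.2 and 23.7 to 38.3, 39.6 and 35.5 CPM (log2 0.73, SE 0.14, adjusted p = 0.000457). It rose in SKNO-1 from 46.1, 54.1 and 50.7 to 63.7, 86.7 and 81.8 CPM (log2 0.61, adjusted p = 0.00328). In MV4-11 it had 52.1, 38.0 and 52.4 against 66.9, 52.8 and 60.1 CPM, a log2 change of 0.34 (adjusted p = 0.115) that was 0.57 and called higher without the 4 libraries (adjusted p = 0.0089). In none of the lines did the groups overlap.

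LIPA (ENSG00000107798, chr10:89213569-89414557, minus strand), the acid lipase that frees cholesterol and fatty acids, fell in Molm-14. It was at 159, 155 and 151 CPM with DMSO and 111, 64.4 and 119 CPM with RMC-4550, without overlap (log2 -0.71, SE 0.22, adjusted p = 0.0155). Without RMC-4550 replicate 2 alone the change was -0.43 and the call was lost, and without the 4 libraries it was -0.43 and called lower. In MV4-11 the values were 64.7, 125 and 68.8 against 87.1, 107 and 109.6 CPM, overlapping; the log2 change was 0.29 with all libraries and -0.21, called lower, without the 4. SKNO-1 had 102, 97.4 and 97.3 against 113, 104 and 109 CPM (log2 0.14, adjusted p = 0.705), which was called higher without the 4.

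SMPD1 (ENSG00000166311, chr11:6390431-6394998, plus strand), the acid sphingomyelinase, fell in SKNO-1 from 40.8, 43.2 and 41.5 to 22.5, 25.9 and 24.8 CPM (log2 -0.78, SE 0.18, adjusted p = 0.00398). The groups were well apart. It was low in Molm-14, at 5.06, 4.27 and 5.40 against 6.07, 4.74 and 5.66 CPM (log2 0.16, adjusted p = 0.479; 0.26 and called higher without the 4 libraries), and overlapping in MV4-11, at 14.2, 18.5 and 11.7 against 10.8, 15.2 and 17.4 CPM (log2 -0.03, adjusted p = 0.929). PPT1, the palmitoyl-protein thioesterase, fell in Molm-14 (-0.41) and SKNO-1 (-0.36), and had -0.07 in MV4-11, where it was called lower without the 4 libraries (-0.33). Its SKNO-1 call was lost without any 1 of the 6 SKNO-1 libraries (-0.37 to -0.35). ACP2, an acid phosphatase, rose in SKNO-1 by 0.48. The ceramidase ASAH1 passed the test in no line with all libraries (log2 -0.26 to -0.05), and in SKNO-1 it was called lower without the 4 (-0.26, adjusted p = 0.000496), with the mitochondrial share as a covariate (adjusted p = 0.00174) and in a fit of that line alone (adjusted p = 0.00117).

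The activator and carrier proteins of the lumen hand lipids to the hydrolases or carry them away. In Molm-14 1 of 4 rose, in MV4-11 2 of 4 and in SKNO-1 0 of 4 (1 at an unadjusted p under 0.05), and none fell, also at an unadjusted p under 0.05; without the 4 libraries 4, 3 and 3 were called higher. PSAP (ENSG00000197746, chr10:71816298-71851375, minus strand), the precursor of the saposins, had 427, 457 and 469 CPM with DMSO and 847, 331 and 796 CPM with RMC-4550 in Molm-14. Replicate 2 lay below all DMSO libraries, and the log2 change was 0.43 (SE 0.34, adjusted p = 0.315), against 0.87 and called higher without the 4 libraries (adjusted p = 1.47e-09). MV4-11 had 118, 269 and 113 against 220.3, 417 and 403 CPM, overlapping, and a log2 change of 1.13 (adjusted p = 0.0388), against 0.61 without the 4. SKNO-1 had 260.2, 266 and 275 against 323, 349 and 332 CPM, without overlap; its log2 change of 0.33 did not pass the test with the pooled spread of all 18 libraries (adjusted p = 0.534) and did without the 4 (adjusted p = 3.28e-05). PSAP kept no call in MV4-11 without any of 13 single libraries (0.91 to 1.13): the 3 Molm-14 DMSO, MV4-11 DMSO replicates 1 and 3, MV4-11 RMC-4550 replicates 2 and 3, and the 6 SKNO-1 libraries.

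NPC2 (ENSG00000119655, chr14:74476192-74494177, minus strand), a soluble cholesterol carrier, rose in Molm-14 from 31.4, 30.4 and 32.1 to 40.4, 37.3 and 42.6 CPM (log2 0.35, SE 0.09, adjusted p = 0.00509), without overlap. In MV4-11 (37.6, 35.3 and 36.7 against 43.4, 34.6 and 34.6 CPM) and SKNO-1 (43.5, 45.4 and 45.7 against 39.1, 43.4 and 44.3 CPM) the groups overlapped, with log2 changes of 0.03 and -0.09. GM2A, the activator of ganglioside breakdown, rose in MV4-11 by 0.41 and had 0.08 in Molm-14 and 0.30 in SKNO-1, both called higher without the 4 libraries (0.23 and 0.30). Its MV4-11 call was lost without DMSO replicate 1 or 3 or RMC-4550 replicate 2 or 3 (0.34 to 0.38). Progranulin (GRN) had log2 changes of 0.26 for Molm-14, 0.44 for MV4-11 and 0.37 for SKNO-1 (adjusted p = 0.234, 0.118 and 0.134), all called higher without the 4 libraries.

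Of 6 tested membrane proteins, 3 rose in Molm-14 and none was called in MV4-11 or SKNO-1, also at an unadjusted p under 0.05. In SKNO-1 without the 4 libraries LAMP1 was called higher and CD63 lower. CD63 (ENSG00000135404, chr12:55725323-55729707, minus strand), a tetraspanin of late endosomes, went from 103, 104 and 113 to 145, 147 and 159.6 CPM in Molm-14 (log2 0.49, SE 0.11, adjusted p = 0.00194), with the groups apart. In MV4-11 it was at 100.4, 89.9 and 118 against 109.9, 86.7 and 84.5 CPM, overlapping (log2 -0.13), and in SKNO-1 at 75.7, 77.9 and 83.5 against 71.7, 64.7 and 75.5 CPM (log2 -0.16). MCOLN1 (ENSG00000090674, chr19:7522626-7534009, plus strand), the calcium channel of the lysosomal membrane, went from 20.3, 23.7 and 23.9 to 34.2, 36.0 and 34.1 CPM in Molm-14 (log2 0.62, SE 0.10, adjusted p = 0.000156), without overlap. Its groups overlapped in MV4-11, at 21.1, 17.95 and 19.9 against 20.5, 19.8 and 20.8 CPM, and in SKNO-1, at 18.5, 17.6 and 19.2 against 17.3, 22.3 and 21.1 CPM. CLN3, whose loss causes a neuronal storage disease, rose in Molm-14 by 0.44, a call lost without DMSO replicate 2 or 3 or RMC-4550 replicate 2 (0.31 to 0.43) and without the 4 libraries (0.31), which left 2 membrane proteins called higher there. The structural glycoproteins LAMP1 and LAMP2 and the cholesterol transporter NPC1 had log2 changes from -0.40 to 0.51 with no call.

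The proton pump was the role with no call in any line with all libraries: 0 of 5 tested members passed in limma for each line, and at an unadjusted p under 0.05 1 was lower in Molm-14 and 0 in either direction in the other lines. ATP6V0D1 (ENSG00000159720, chr16:67438014-67481237, minus strand), a subunit of the membrane sector, was at 48.6, 46.0 and 43.5 CPM with DMSO and 47.6, 18.3 and 50.8 CPM with RMC-4550 in Molm-14. In MV4-11 it was at 17.7, 42.0 and 14.4 against 21.02, 36.1 and 40.4 CPM. The low values in both lines, 14.4 to 21.02 CPM, were those of the 4 libraries set apart. SKNO-1 had 47.7, 48.4 and 49.3 against 35.5, 42.9 and 38.8 CPM, without overlap; the log2 change of -0.31 did not pass with all libraries (adjusted p = 0.587) and was called lower without the 4 (adjusted p = 0.00129).

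The median log2 change of the 5 pump genes was -0.21 for Molm-14, 0.25 for MV4-11 and -0.09 for SKNO-1. It was 0.11, -0.15 and -0.09 without the 4 libraries, so its sign turned in both FLT3-ITD lines. In that setting ATP6AP1, an accessory subunit, and ATP6V1H, a regulatory one, were called higher in Molm-14 (0.30 and 0.19), and the catalytic subunit ATP6V1A lower (-0.18). In SKNO-1 ATP6V1H was called higher (0.14), and ATP6V0D1 and ATP6V1B2, a subunit of the catalytic ring, lower (-0.31 and -0.26). The ranges over all lines with all libraries were -0.47 to 0.51.

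**Figure D3:**
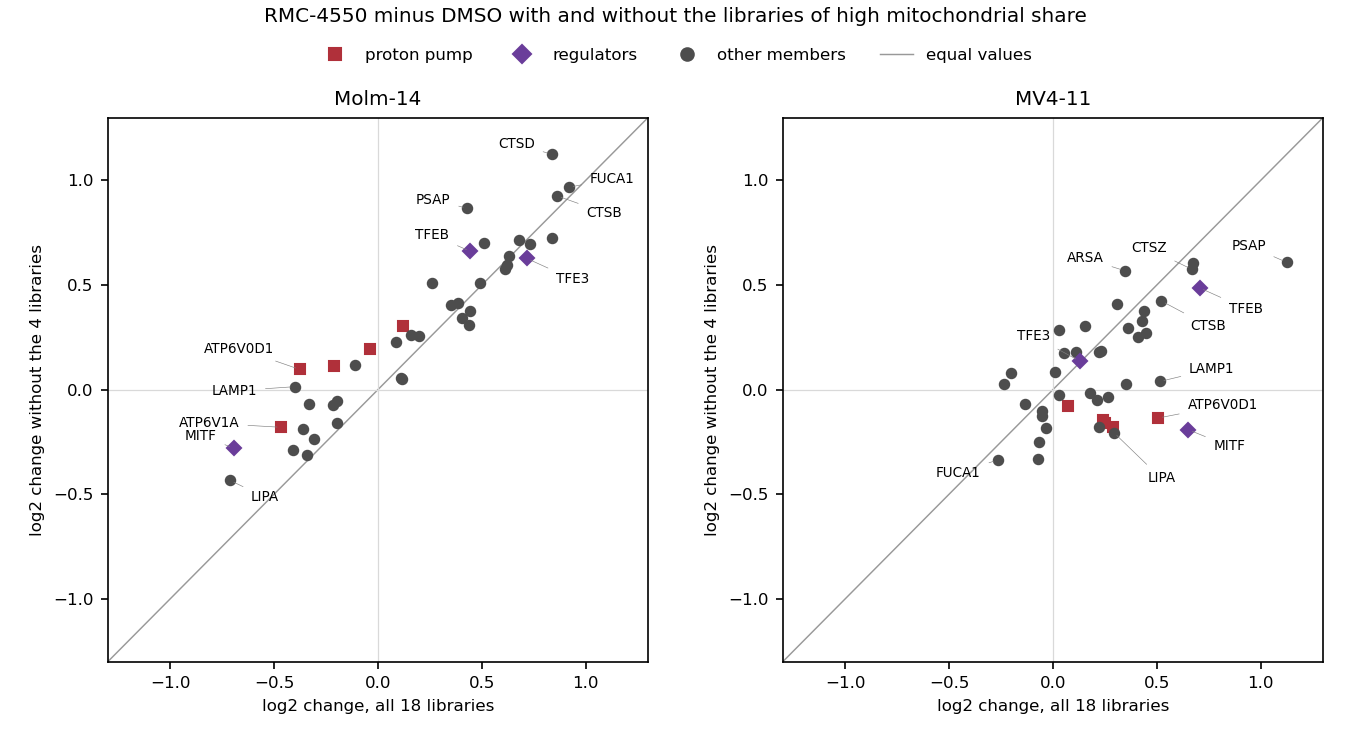
Each point is 1 tested member in Molm-14 or MV4-11, with its log2 change over all 18 libraries on the horizontal axis and without the 4 libraries of high mitochondrial share on the vertical axis; squares are pump subunits and diamonds regulators. In MV4-11 the pump subunits move from a median of 0.25 to -0.15, and in Molm-14 from -0.21 to 0.11.

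Of the 33 members with a RefSeq promoter, the 8 with TCACGTG were all tested in each line. In Molm-14 6 of these 8 rose and 0 fell, with a median log2 change of 0.44, where 21.5% of all genes rose; 1 of the 6, CLN3, was not called without the 4 libraries (0.31). Of the other 25, 22 were tested, with 8 higher, 4 lower and a median of 0.12. The counts for the 8 were 2 higher and 0 lower in MV4-11 (median 0.26) and 1 higher and 0 lower in SKNO-1 (0.12). For the others they were 3 higher and 0 lower of 22 in MV4-11 (0.20) and 5 higher and 2 lower of 21 in SKNO-1 (0.04). The 6 that rose in Molm-14 were CLN3, CTSA, CTSD, GAA, MCOLN1 and NEU1, the genes whose windows are printed above other than ATP6V0D1 and LAMP1. These counts are a description and were not tested against each other.

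The 4 members that could be tested in no line were near the limit of detection. CTSL, a cysteine cathepsin, reached at most 0.328 CPM in any library, the macrophage sialomucin CD68 at most 0.325 CPM and the osteoclast pump subunit ATP6V0D2 at most 1 read. ACP5, the tartrate-resistant phosphatase, reached 1.299 CPM in 1 SKNO-1 library. For CD68, 85.8% of the exon bases overlap another gene in GENCODE release 29, so a low count there cannot be told apart from reads that were shared. The sulfatase SGSH, singled out after its values were seen, had 0 or 1 read in every Molm-14 library and means of 13.0 CPM in MV4-11 and 8.13 CPM in SKNO-1 with DMSO. Set against a floor of 3 reads per library, those are at least 75.0-fold and at least 47.02-fold higher than in Molm-14.

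Whether the FLT3-ITD lines and the KIT-mutant line responded differently was tested as the SKNO-1 change minus the mean change of Molm-14 and MV4-11. Of the 41 members tested, 3 passed, all with a smaller or more negative change in SKNO-1, against 3.80% of all genes in either direction. CTSB differed by -0.71 (SE 0.09, adjusted p = 0.000391), SMPD1 by -0.84 (SE 0.22, adjusted p = 0.0424) and TFE3 by -0.39 (SE 0.09, adjusted p = 0.0266). TFEB, CTSZ and MANBA did not pass this test. With any SKNO-1 library or Molm-14 DMSO replicate 2 left out, 1 member passed. Dropping the 4 libraries leaves MV4-11 with 1 DMSO library, and no all-gene share is given for this contrast in that setting. The differences then included -0.75 for CTSD, -0.41 for PSAP, -0.38 for CD63, 0.25 for CTSC and 0.46 for LIPA. The SMPD1 difference lost its call without any of 14 single libraries (-0.88 to -0.76), all but Molm-14 DMSO replicate 3, Molm-14 RMC-4550 replicate 2, MV4-11 DMSO replicate 2 and MV4-11 RMC-4550 replicate 1, and the TFE3 difference without any of the 6 SKNO-1 libraries or Molm-14 DMSO replicate 2 (-0.40 to -0.37).

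The responses of Molm-14 and MV4-11, which share the FLT3-ITD genotype, differed in 10 of 42 members. The change was larger in Molm-14 for 7 of them and lower for 3. That share, 23.8%, was near the 19.5% of all genes. FUCA1 differed most, by 1.19 (SE 0.14, adjusted p = 6.57e-05). LIPA differed by -1.005 (SE 0.31, adjusted p = 0.0366) and CD63 by 0.63 (SE 0.16, adjusted p = 0.0132). TFE3 (0.59, adjusted p = 0.00228), MCOLN1 (0.57), HEXA (0.59), MANBA (0.48) and CTSB (0.34) also had a higher change in Molm-14. CTSC (-0.49) and GUSB (-0.29) had a lower one, since both fell in Molm-14 and passed the test in neither direction in MV4-11. Without the 4 libraries FUCA1 (1.304), CD63 (0.58), TFE3 (0.49), CTSB (0.50) and MANBA (0.43) were still called, whereas LIPA (-0.23), CTSC, GUSB, HEXA and MCOLN1 were not. LIPA also lost its call without any of 8 single libraries (-1.02 to -0.73): the 3 Molm-14 DMSO, Molm-14 RMC-4550 replicate 2, MV4-11 DMSO replicates 1 and 3, and MV4-11 RMC-4550 replicates 2 and 3. The count was 26 without MV4-11 DMSO replicate 2, which leaves that group only libraries of high mitochondrial share. It was 6 without Molm-14 DMSO replicate 2, MV4-11 DMSO replicate 3 or MV4-11 RMC-4550 replicate 3. All-gene shares for these omissions are not given, so the counts cannot be read as particular to the members. Omission of single libraries also ended the call for CTSB in 13 of the 18 omissions (0.30 to 0.37), GUSB in 14 (-0.29 to -0.24) and HEXA in 6 (0.51 to 0.58).

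Levels of single members also differed between the lines without the inhibitor, although the summed levels of Molm-14 and MV4-11 overlapped. With DMSO, 28 of 43 members differed between MV4-11 and Molm-14 (13 higher in MV4-11, 15 lower), against 54.1% of all genes; without the 4 libraries the split was 17 higher and 12 lower, against 50.5%. SKNO-1 differed from Molm-14 in 33 (22 higher and 11 lower, all genes 65.2%) and from MV4-11 in 25 (22 higher and 3 lower, all genes 41.6%). MV4-11 DMSO replicates 1 and 3 are among the 4 libraries. With the mitochondrial share as a covariate, SKNO-1 was higher in 23 and lower in 15 against Molm-14, and higher in 21 and lower in 5 against MV4-11. LAMP1 (0.018), ATP6V0D1 (0.19), ATP6V1A (0.14), TPP1 (0.11), GRN (0.24) and CD63 (-0.25) then no longer passed against MV4-11, and other members did in their place. The 3 comparisons share control libraries. SMPD1 had the order SKNO-1, MV4-11, Molm-14, with log2 differences of 1.52 between the first pair and 1.57 between the second. CTSZ had the same order, with 0.77 and 0.85, as did CTSD, with 0.92 and 0.63. CTSS had the opposite order, -0.75 in SKNO-1 against MV4-11 and -0.90 in MV4-11 against Molm-14. All of these passed the test, so no neighbours in these orders were within their spread.

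The regulators differed in pattern at the vehicle level. MITF was highest in Molm-14, by 2.92 on the log2 scale over MV4-11 (1.76 without the 4 libraries) and by 5.30 over SKNO-1. TFEB was lower in MV4-11 than in Molm-14 by 0.44 (adjusted p = 0.0451), a difference of 0.08 with no call without the 4 libraries. SKNO-1 did not pass against either line for TFEB, at -0.24 against Molm-14 and 0.20 against MV4-11. TFE3 was higher in SKNO-1 than in Molm-14 by 0.36 and did not pass between the other pairs (0.17 and 0.19). PSAP was lower in MV4-11 than in Molm-14 by 1.56, or by 0.74 without the 4 libraries.

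**Figure D4:**
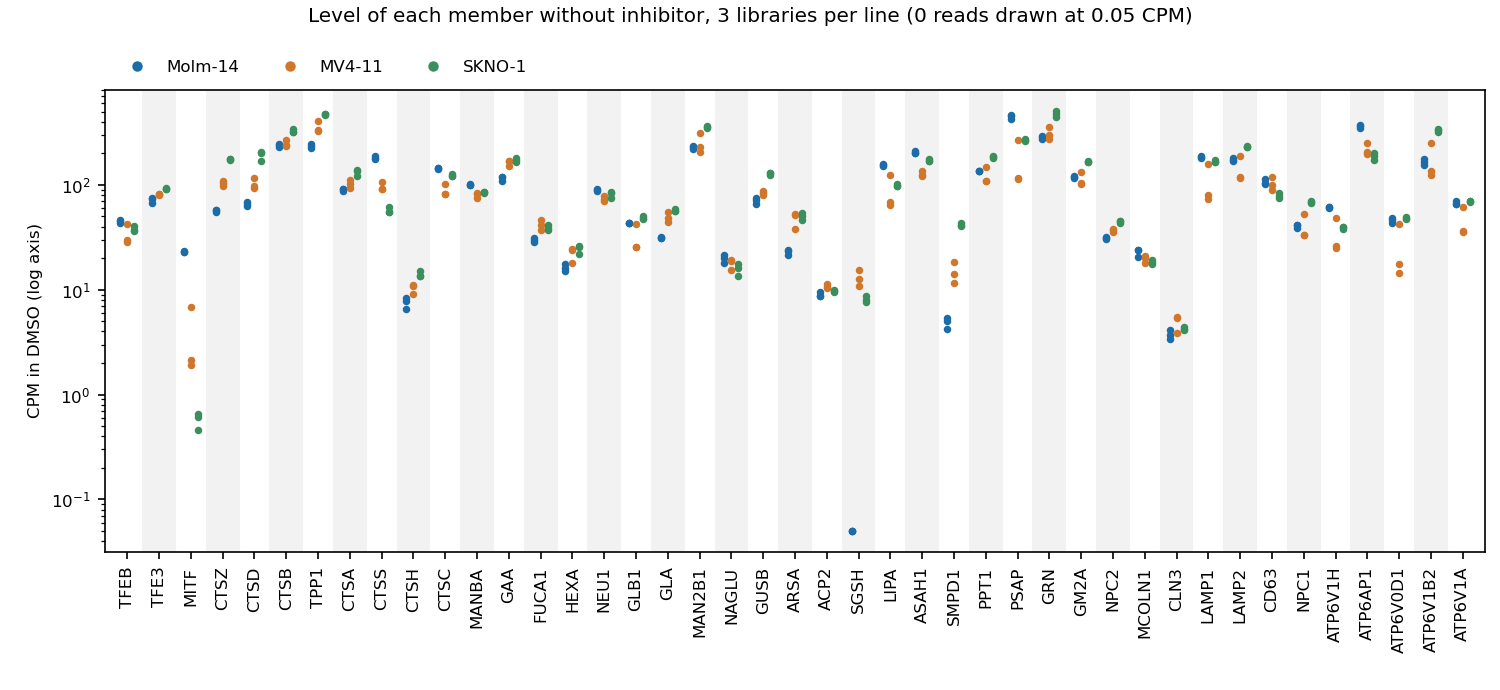
The level of each of the 43 tested members in the 3 DMSO libraries of each line is plotted in CPM on a log axis, with libraries of 0 reads drawn at 0.05 CPM. SGSH is near the floor in Molm-14 and at means of 13.0 and 8.13 CPM in MV4-11 and SKNO-1, and MITF is highest in Molm-14.

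The wider pathway was read from 6 further lists of 105 genes, drawn up with earlier results of these data known. Of these genes, 26 of 94 tested rose and 13 fell in Molm-14, 10 of 97 rose and 2 fell in MV4-11, and 11 of 98 rose and 17 fell in SKNO-1. As shares these were 27.7% higher and 13.8% lower against 21.5% and 25.2% of all genes, 10.3% and 2.06% against 5.85% and 8.03%, and 11.2% and 17.3% against 10.8% and 16.2%, so the SKNO-1 shares were near those of all genes. Other lysosomal hydrolases gave 7 higher and 0 lower of 19 in Molm-14, 3 and 0 of 20 in MV4-11, and 2 and 0 of 20 in SKNO-1. CTSK, the bone-resorbing cathepsin, had 27.1 ± 1.91 CPM with DMSO and rose to 66.3 ± 18.5 CPM (SD, n = 3; log2 1.26) in Molm-14. GALNS, a sulfatase that acts on keratan sulfate, rose in Molm-14 (0.97), MV4-11 (0.36) and SKNO-1 (0.47). DNASE2, the acid nuclease, rose in MV4-11 (0.98) and SKNO-1 (1.27).

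Other lysosomal membrane proteins gave 5 higher and 4 lower of 16 in Molm-14, 3 and 0 in MV4-11, and 3 and 2 in SKNO-1. In Molm-14 LAPTM4B fell from 228 ± 8.17 to 99.6 ± 43.5 CPM (log2 -1.31), and it fell from 24.5 ± 1.12 to 8.03 ± 0.153 CPM in SKNO-1 (-1.61). The metal transporter SLC11A1 fell in Molm-14 (-0.91). The peptide transporter SLC15A3 rose in MV4-11 (1.18) and SKNO-1 (1.31), and the cystine exporter CTNS rose in MV4-11 (0.97).

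Further pump subunits gave 3 higher and 2 lower of 12 in Molm-14, 0 and 1 of 13 in MV4-11, and 0 and 3 of 14 in SKNO-1. TCIRG1, the membrane-sector subunit found in osteoclasts and immune cells, rose in Molm-14 (0.71), and another form of that subunit, ATP6V0A2, fell there (-0.63). ATP6V1E1, of the stalk, fell in MV4-11 (-0.26) and SKNO-1 (-0.29), and ATP6V0B fell in SKNO-1 (-0.51). Mannose 6-phosphate sorting genes gave 2 higher and 0 lower of 9 in Molm-14, 3 and 0 in MV4-11, and 2 and 2 in SKNO-1. GNPTAB, which encodes the catalytic part of the phosphotransferase that starts the tag, rose in MV4-11 (0.89) and SKNO-1 (1.03), and GNPTG, its accessory subunit, rose in Molm-14 (0.80). NAGPA, the uncovering enzyme, rose in Molm-14 (0.30), the sorting receptor SORT1 in MV4-11 (0.71) and the adaptor GGA2 in SKNO-1 (0.43).

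The list of the mTORC1 arm that controls the TFEB family also holds TFEC, a further family member. It gave 4 higher and 4 lower of 20 in Molm-14, 1 and 1 in MV4-11, and 1 and 5 in SKNO-1. MTOR, the kinase, fell in Molm-14 (-0.75) and its partner RPTOR rose there (0.70). TFEC (0.76) was the 1 gene of the list called higher in MV4-11, so no gene of the arm itself was. LAMTOR3, of the lysosomal anchor, fell in MV4-11 (-0.38). FNIP2 (-1.15) and RRAGB (-0.62), of the Rag GTPase system, fell in SKNO-1. Autophagy genes gave 5 higher and 3 lower of 18 in Molm-14, 0 and 0 of 19 in MV4-11, and 3 and 5 of 19 in SKNO-1. GABARAPL1, an autophagosome protein of the ATG8 family, rose in Molm-14 (0.50) and SKNO-1 (0.49). WIPI1, which marks forming autophagosomes, fell in Molm-14 (-0.52) and rose in SKNO-1 (0.60).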

How the data were processed

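The 18 libraries were 6 groups of 3. The authors deposited one table of log2 values per Ensembl gene. Its lowest values match log2 of reads plus 0.5 over the scaled library size, in CPM, and 100% of values below 20 reads came back as whole reads within 0.05, so reads, CPM and depth were recovered from it. FastQC, STAR, limma and the build GRCh38 are named in the submitters' processing notes; the counting tool, annotation, strand setting and filters are not given in the sources used here. Symbols were found for 40069 of 40184 identifiers.

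The main test was limma 3.58.1 (lmFit, eBayes with trend, R 4.3.3) on the deposited log2 values of the 18 libraries, 1 coefficient per group and no covariate. The fit held 16262 genes with at least 1 CPM in 3 or more of the 18 libraries. The treatment contrast of a line was limited to genes that reached this in 3 or more libraries of that line. Contrasts were two-sided, adjusted by Benjamini-Hochberg over all genes tested in each contrast, and called at an adjusted p under 0.05. P-values measure the spread between cultures labelled as biological replicates. Tables and figures used Python 3.11.15, pandas 2.3.3, numpy 2.4.6 and matplotlib 3.10.9. The scaling factors in the table ran from 0.890 to 1.11. The limma step was tested on simulated data.

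The members, the pathway lists and the markers were chosen with earlier results of these data known. Values per library are given for TFEB, TFE3 and MITF, for members called the same way in all 3 lines, for the called member with the largest change in each role and line (mean of at least 5 CPM in 1 group), and for the 3 members that differ most among those called in each contrast between responses; ATP6V0D1 was added after its values were seen. Pathway genes named are the 2 with the largest change among those called in each list and line. Alternatives were a stricter filter (5 CPM on average), no filter, log2(CPM + 1), voom weights, scaling by median ratios, a replicate block, the mitochondrial share as a covariate, omission of the 4 libraries over 10% mitochondrial reads, a fit per line and omission of each library.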

Additional observations from a re-analysis of the deposited data

Results flagged for a closer look

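Tests of a difference between responses passed for 13 values. Of these, 3 set SKNO-1 against the mean of the FLT3-ITD lines (3.8% of all genes passed). The other 10 set Molm-14 against MV4-11 (19.5% of all genes passed). The groups of 3 were too small to be checked for outlying libraries. Relative to the mean of the FLT3-ITD lines, the SKNO-1 change with RMC-4550 was lower for CTSB (-0.71), SMPD1 (-0.84) and TFE3 (-0.39). Relative to MV4-11, the Molm-14 change was higher for FUCA1 (1.19), CD63 (0.63), TFE3 (0.59), HEXA (0.59), MCOLN1 (0.57), MANBA (0.48) and CTSB (0.34), and lower for LIPA (-1.005), CTSC (-0.49) and GUSB (-0.29). The FUCA1 changes had opposite signs, from a mean of 29.7 to 56.2 CPM in Molm-14 and from 41.4 to 34.4 CPM in MV4-11. LIPA fell in Molm-14, from 155 to 98.0 CPM, and had means of 86.2 and 101 CPM in MV4-11. Without the 4 libraries of high mitochondrial share, LIPA (-0.23), CTSC (-0.22), GUSB (-0.21), HEXA (0.29) and MCOLN1 (0.42) no longer passed. SKNO-1 differs from the other lines in genotype, line and growth factor, which cannot be told apart.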

How the results depend on the processing

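The values of the tested members kept their sign under log2(CPM + 1), voom weights, a fit per line, no filter and a stricter one (5 CPM on average), and changed sign 5 times under median-ratio scaling, 14 times with the mitochondrial share as a covariate, 19 times without the 4 libraries and 26 times with 1 library left out. Reads were few for CTSL, CD68 and ATP6V0D2 in every line and for SGSH in Molm-14, with at most 7 in a library. They were also few for ACP5 (at most 28 reads) and MITF in SKNO-1 (4 to 14 reads). The reason for these low counts was not tested. Of the 22 calls in Molm-14, 18 held in every alternative, as did 2 of 9 in MV4-11 and 6 of 12 in SKNO-1. Where a call or direction changed, the cause was not tested.

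With the mitochondrial share as a covariate, calls became more frequent over all genes too. The share called lower went from 25.2% to 30.2% in Molm-14, from 8.03% to 22.2% in MV4-11 and from 16.2% to 29.5% in SKNO-1. The share called higher in SKNO-1 went from 10.8% to 20%. Among the members, 7 were lower in Molm-14 in place of 4, 2 in place of 0 in MV4-11 and 7 in place of 3 in SKNO-1. In SKNO-1 15 in place of 9 were higher. Responses that differed between SKNO-1 and the FLT3-ITD lines were 13 in place of 3, with no all-gene share given for the covariate. Counts without the 4 libraries, which leave MV4-11 with 1 DMSO library, are given for each line above beside the shares of all genes. With no filter, 5 were higher in MV4-11, 1 lower in SKNO-1, 1 response differed in SKNO-1 and 6 between Molm-14 and MV4-11. A fit per line gave 2 higher in MV4-11, and 15 higher and 8 lower in SKNO-1. Leaving out 1 library gave 3 to 8 lower in Molm-14, 4 to 17 higher and 0 to 1 lower in MV4-11. It gave 5 to 11 higher and 1 to 5 lower in SKNO-1. Differing responses numbered 1 to 4 in SKNO-1 and 6 to 26 between Molm-14 and MV4-11. All-gene shares with no filter, a fit per line or 1 library left out are not given.

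The labels do not say whether same-numbered libraries were handled together, and the main fit did not pair them. Deviations of same-numbered libraries correlated at -0.10, -0.03 and 0.05 in Molm-14, 0.53, 0.71 and -0.51 in MV4-11, and 0.21, 0.07 and 0.07 in SKNO-1. The MV4-11 values include libraries of high mitochondrial share in both treatments, so they cannot settle whether the samples were paired. With a replicate block 1 response differed in SKNO-1, and 14 of the values tested no longer passed, TFEB in Molm-14 (adjusted p = 0.0625) and CTSA in MV4-11 (adjusted p = 0.051) among them.

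Log2 changes turned sign as follows. With the covariate they became ATP6V0D1 0.14, ATP6V1B2 0.15, ATP6V1H 0.25, LAMP1 0.019, LAMP2 0.14 and NPC1 0.015 in Molm-14. In MV4-11 they became ATP6AP1 -0.081, ATP6V0D1 -0.025, ATP6V1A -0.068, ATP6V1B2 -0.13, ATP6V1H -0.0070, GLB1 -0.052 and LIPA -0.0087, and in SKNO-1 GLB1 0.031. Without the 4 libraries they became ATP6V0D1 0.096, ATP6V1B2 0.11, ATP6V1H 0.19, LAMP1 0.014 and LAMP2 0.12 in Molm-14. For MV4-11 that setting gave ATP6AP1 -0.079, ATP6V0D1 -0.14, ATP6V1A -0.15, ATP6V1B2 -0.16, ATP6V1H -0.18, CTSC -0.018, GLB1 -0.18, LIPA -0.21, MAN2B1 -0.048, MITF -0.19, NAGLU 0.026, NPC1 -0.034, NPC2 -0.028 and SGSH 0.081. Scaling by median ratios gave ATP6V1H 0.0082 in Molm-14, SMPD1 0.0064 in MV4-11, and ATP6AP1 0.0084, CTSB 0.051 and GLB1 0.061 in SKNO-1.

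Leaving out 1 library gave ranges that crossed 0 in Molm-14 of -0.64 to 0.096 for ATP6V0D1, -0.40 to 0.11 for ATP6V1B2, -0.20 to 0.19 for ATP6V1H, -0.65 to 0.014 for LAMP1 and -0.24 to 0.12 for LAMP2. In MV4-11 the ranges were -0.23 to 0.017 for CLN3, -0.0054 to 0.21 for CTSH, -0.073 to 0.092 for GLA, -0.12 to 0.10 for HEXA, -0.0089 to 0.11 for MCOLN1, -0.078 to 0.085 for NPC2, -0.14 to 0.068 for PPT1 and -0.19 to 0.16 for SMPD1. In SKNO-1 they were -0.0021 to 0.12 for CLN3, -0.033 to 0.017 for CTSB, -0.0083 to 0.12 for CTSH, -0.0046 to 0.073 for GLA, -0.044 to 0.036 for GLB1, -0.016 to 0.070 for LAMP2 and -0.0088 to 0.061 for NPC1.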
